A study of Homo sapiens with 26 samples.

Results

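The interferon response and viral mimicry genes examined here are 44 named RNA sensors, signalling proteins and interferon-stimulated genes. They were taken by gene identifier from a table of 57773 genes, and all 44 were found. They were measured by RNA sequencing in TF-1 cells, a human line established from an erythroleukemia, which depends on the cytokine GM-CSF. Of the 44 genes, 39 had enough reads to be tested in a model of all passing libraries. The other 5, TLR3, OAS1, OAS2, MX1 and MX2, did not pass the filter on low counts.

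Cells recognise double-stranded RNA as a sign of viral infection. The cytosolic sensors RIG-I and MDA5 signal through the adaptor MAVS to the transcription factors IRF3 and IRF7, which switch on interferon genes. Secreted interferon then acts through its receptor to induce a large set of antiviral genes. DNA methylation keeps endogenous retroelements silent, and drugs that deplete DNA methyltransferases, such as 5-azacytidine, can release double-stranded RNA from these elements. The interferon response that follows in some cancer cells is called viral mimicry.

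The knockout group (KO) was 2 TF-1 clones, A12 and F4, labelled TET2 -/-. The wild-type group (WT) was 2 clones, A7 and C4, labelled TET2 +/+. TET2 is an enzyme that oxidises 5-methylcytosine in DNA. Each clone received 200 nM 5-azacytidine (Aza) dissolved in DMSO, or DMSO alone, once a day for 3 days. RNA was collected from untreated cells at the start, and again 72 h and 264 h later. Batch 1 held 20 libraries, 5 for each of the clones, and batch 2 held 6 libraries of the KO clones in DMSO, whose pre-treatment pair carries both a pre-treatment and a DMSO label. The labels mark 1 library, KO clone F4 in DMSO at 72 h of batch 1, as failing sequencing quality control. It was left out, which left 25 libraries, and the only passing F4 library for DMSO at 72 h is from batch 2. All groups are TF-1 cells and each genotype is 2 clones, so differences between KO and WT are differences between 2 clones and 2 clones.

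Total counts ran from 24992192 to 40187322 per library, and 3 counts, taken as the floor, corresponded to 0.0747 to 0.120 CPM, the count scaled to a common library size. Of the 10 TF-1 progenitor markers, 9 reached 1 CPM. The exception, CSF2RA, had 0 counts in all 25 libraries, as did IL3RA of the plasmacytoid dendritic list. Both lie on chromosome X between 1337693 and 1501578 (GRCh37). Whether they are not expressed or not counted was not tested. Of the markers of other cell types, 2 of 6 monocyte and macrophage genes, 1 of 5 plasmacytoid dendritic, 4 of 6 lymphoid and 1 of 6 stromal and epithelial genes reached 1 CPM in any library, while CD14, CD163, CLEC4C, LILRA4, CD3E and MS4A1 stayed below it. The lymphoid genes summed to 21.9 to 63.2 CPM in KO DMSO libraries at 72 h and to 23.4 to 48.3 CPM in KO Aza libraries, so the ranges overlapped. The WT sums were 6.06 to 7.51 CPM with DMSO and 7.49 to 9.61 CPM with Aza. CD3D made up most of the KO sums, at 35.9 to 61.4 CPM in A12 and 9.72 to 17.2 CPM in F4. It measured 0.529 to 4.05 CPM in WT libraries. KRT18, the stromal and epithelial gene that reached 1 CPM, measured 93.9 to 206 CPM. In WT the monocyte genes summed to 42.9 to 45.3 CPM with DMSO and 35.0 to 39.0 CPM with Aza at 72 h, and the plasmacytoid dendritic genes to 60.5 to 61.8 and 48.0 to 50.6 CPM. LYZ makes up nearly all of the monocyte sum and TCF4 of the plasmacytoid dendritic sum. CSF1R, a receptor on monocytes, went the other way, from 0.413 and 0.641 to 1.49 and 1.74 CPM in WT and from 0.558 to 0.961 CPM with DMSO to 3.04 and 4.77 CPM with Aza in KO. The TF-1 markers summed to 2126 to 2332 CPM with DMSO and 2578 to 2631 CPM with Aza in KO, and to 1807 to 1832 and 2023 to 2304 CPM in WT. GATA2, the TF-1 marker with the highest median, went the other way at 72 h. In KO it measured 697 to 871 CPM with DMSO and 584 and 570 CPM with Aza. In WT it went from 478 and 539 CPM to 427 and 407 CPM. The part of these shifts in the results below was not tested. TET2 mRNA was measured at 24.9 to 46.4 CPM in KO and 22.5 to 29.96 CPM in WT libraries. Counts over the whole gene do not show which bases were changed, so this level checks no label. In bulk RNA, fewer expressing cells and less RNA per cell cannot be told apart.

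The WT libraries taken before treatment stood apart from their labels. Across 3000 genes, the deviation of the library labelled A7 or C4 from the WT mean correlated at -0.523 to -0.478 with later libraries of the same label. The later WT libraries correlated at 0.451 to 0.516 with each other by label. XAF1 and IRF3 showed this reversal. XAF1, an interferon-induced binding partner of the apoptosis inhibitor XIAP, measured 4.16 CPM in the pre-treatment library labelled A7 and 8.42 CPM in the one labelled C4, against 6.01 to 9.83 CPM in later A7 and 3.56 to 4.48 CPM in later C4 libraries. These 2 libraries enter no treatment comparison directly, but they shape the clone term and the spread of the shared model. The counts of called genes after Aza are therefore also given with these 2 clone labels exchanged and with both libraries left out.

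Transcription factors of the interferon pathway bind short elements near gene starts. RefSeq promoter windows (250 bases before to 50 bases after the gene start, build GRCh38.p14) were matched by symbol for 34 of the 44 genes. The interferon regulatory factor core (GAAA, any 2 bases, GAAA), searched on both strands, occurred in 22 of these windows (64.7%), against 996 of 27305 windows of all genes (3.65%). The STAT core TTCNNNGAA, also searched on both strands, occurred in 10 windows (29.4%), against 7.88% of all. The 2 motifs can overlap each other. The windows of 4 genes are shown because these genes took different courses after Aza. OAS3 and IFIT3 were higher at 72 h in both genotypes, EIF2AK2 was lower in both, and MX1 stayed near the counting floor. Capitals mark this core or its reverse complement.
OAS3 promoter, chr12:112938224-112938523, plus strand: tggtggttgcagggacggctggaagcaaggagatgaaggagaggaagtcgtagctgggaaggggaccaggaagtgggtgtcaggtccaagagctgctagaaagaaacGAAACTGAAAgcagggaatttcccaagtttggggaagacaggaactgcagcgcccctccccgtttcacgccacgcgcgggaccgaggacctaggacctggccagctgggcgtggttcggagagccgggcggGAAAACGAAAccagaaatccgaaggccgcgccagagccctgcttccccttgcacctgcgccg
IFIT3 promoter, chr10:89327747-89328046, plus strand: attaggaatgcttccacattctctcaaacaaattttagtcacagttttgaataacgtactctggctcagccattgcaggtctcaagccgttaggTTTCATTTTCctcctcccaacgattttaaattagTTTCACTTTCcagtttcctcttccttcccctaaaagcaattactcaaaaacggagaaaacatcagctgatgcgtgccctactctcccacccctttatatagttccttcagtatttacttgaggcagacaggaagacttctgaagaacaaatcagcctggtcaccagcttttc
EIF2AK2 promoter, chr2:37156931-37157230, minus strand: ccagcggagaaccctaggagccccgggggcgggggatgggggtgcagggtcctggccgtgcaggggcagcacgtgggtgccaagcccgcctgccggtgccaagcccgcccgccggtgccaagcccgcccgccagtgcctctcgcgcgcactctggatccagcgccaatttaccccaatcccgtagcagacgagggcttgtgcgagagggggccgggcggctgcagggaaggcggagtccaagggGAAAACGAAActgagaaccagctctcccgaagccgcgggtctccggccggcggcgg
MX1 promoter, chr21:41420308-41420607, plus strand: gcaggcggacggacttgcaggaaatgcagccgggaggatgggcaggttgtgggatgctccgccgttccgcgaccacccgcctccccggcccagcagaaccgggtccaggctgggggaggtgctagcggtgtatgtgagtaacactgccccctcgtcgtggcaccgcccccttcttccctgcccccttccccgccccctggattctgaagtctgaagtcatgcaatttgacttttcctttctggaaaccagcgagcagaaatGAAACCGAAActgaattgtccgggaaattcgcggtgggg

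The OAS3 window held 2 cores, whose first bases lie at positions 108 and 239 of the window counted from its 5′ end. The IFIT3 window held 2 on the reverse strand, at 95 and 129. The EIF2AK2 window held 1 at position 245, next to the gene start, and the MX1 window 1 at 262, inside the transcribed part. Among genes higher at 72 h in either genotype, 7 of 9 matched windows held the core (77.8%). DHX58, IFIT2, IRF7 and OASL were also called higher but had no matched window, so this share leaves them out. Among those called in neither, 11 of 19 did (57.9%), and among those lower, 2 of 3. The CpG dinucleotide, the site of DNA methylation, occurred a median of 10 times per window in the set and 14 times in all windows. A match of letters is a description and shows no binding, and methylation was not measured in these files.

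Before any treatment effect, the genes differed widely in level. Per kilobase of exon, BST2, which tethers budding virus particles to the cell, had the highest median over all libraries at 322 CPM per kb. IFITM3, a membrane protein that blocks viral entry, followed at 215, IFITM1 at 106, IFITM2 at 55.5 and the RNA editor ADAR at 33.4 CPM per kb. At the other end of the tested genes, DDX60 had 0.0204, IFI27 0.0774, IFI44L 0.0811, OAS3 0.104 and OASL 0.132 CPM per kb. Of the genes that later showed the largest differences, OASL rests on few reads, with 253 counts over all 25 libraries. OAS3 had 805 counts, RSAD2 1475, IFIT2 2665, DHX58 3742 and IRF7 4406. MX2 had 0 counts in all 25 libraries, which allows up to the floor of 3 counts in each. TLR3 had 14 counts over all libraries, OAS2 had 18, OAS1 had 28 and MX1 had 71.

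At 72 h the response was partial and was led by OAS3, OASL, IFIT2 and DHX58 in KO and by OAS3, IRF7, RSAD2 and IFIT2 in WT. Of 39 tested genes, 11 were higher and 2 lower with Aza in KO, and 8 were higher and 3 lower in WT (edgeR quasi-likelihood test, Benjamini-Hochberg adjusted p below 0.05 over 18391 genes). Over all tested genes, 11.6% were higher and 8.47% lower in KO, and 9.26% were higher and 9.04% lower in WT. The median log2 difference of the 39 genes was 0.24 in KO and 0.14 in WT, against 0.01 and 0.00 over all tested genes. A rise of at least 2-fold was reached by 4 called genes in KO (OAS3, OASL, IFIT2 and DHX58) and 2 in WT (OAS3 and IRF7), so most of the genes were not called and most of those called moved by less than 2-fold. With the WT pre-treatment labels exchanged, 16 genes were higher and 2 lower in KO and 12 higher and 3 lower in WT. With those libraries left out the counts were 16 and 3 in KO and 12 and 3 in WT. Within batch 1 alone, 6 were higher and 2 lower in KO, and including the failed library gave 7 and 1 in KO and 2 and 1 in WT. Of the 13 KO calls, 4 held in every alternative fit run (OAS3, IFIT2, IRF7 and IFI44), and of the 11 WT calls 1 did (IRF7).

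**Figure D1:**
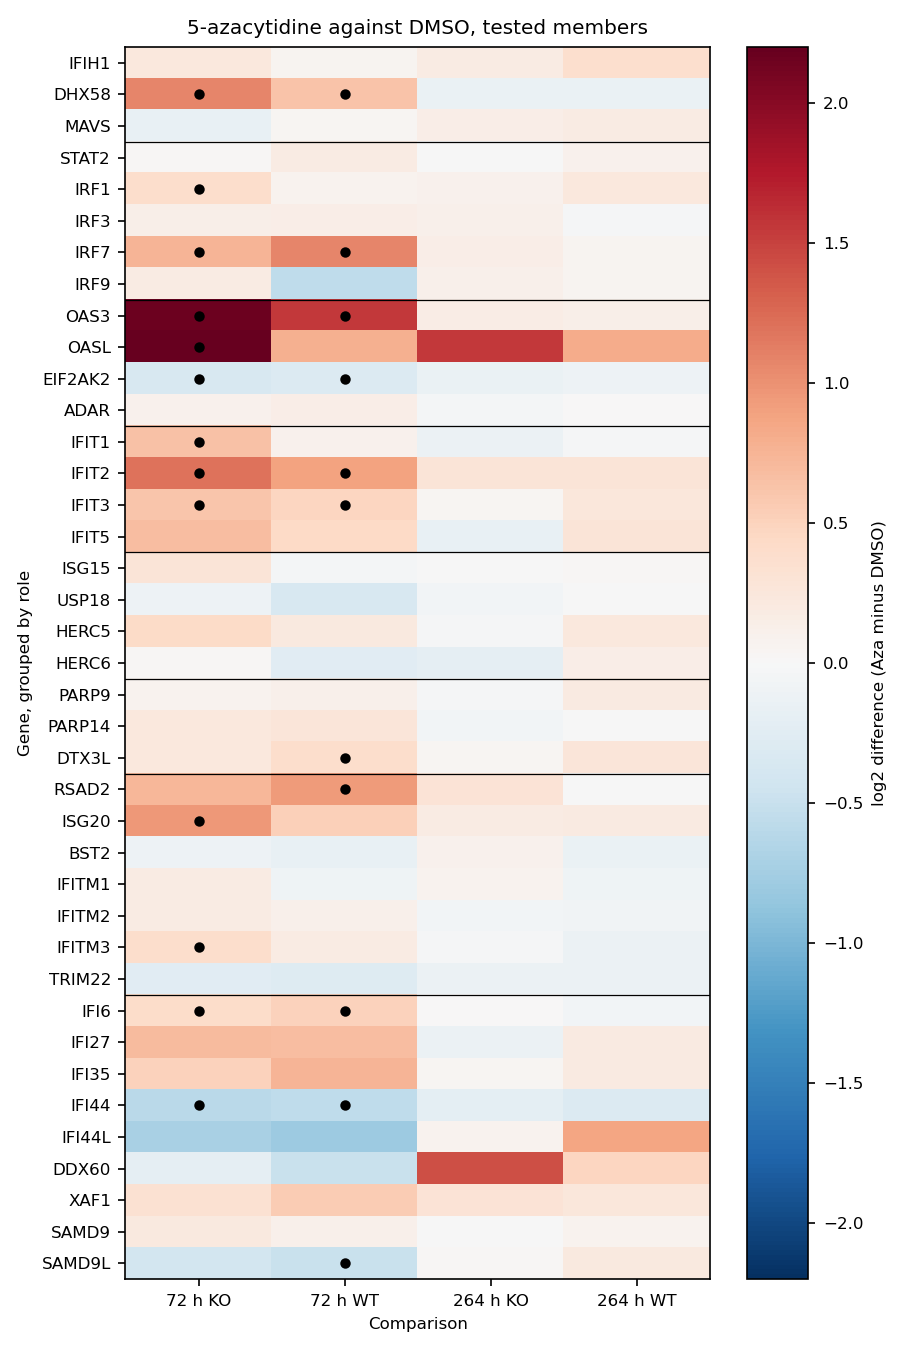
Log2 difference of Aza against DMSO (colour) for the 39 tested genes (rows, grouped by role with lines between the groups) at 72 h and 264 h in KO and WT (columns); dots mark an adjusted p below 0.05. Dots stand in the 72 h columns, 13 in KO and 11 in WT, and none in the 264 h columns.

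The libraries themselves were also compared without a model. Every Aza library lay above every DMSO library for 14 of the 39 genes in KO (18.2% of all tested genes did so) and for 13 in WT (26.6%). Every Aza library lay below for 4 genes in KO (17.0%) and 9 in WT (26.6%). Some of these separated genes were not called in that genotype. Of those, ADAR and STAT2 lay higher in both genotypes and BST2 and TRIM22 lower in both. Also separated but not called in KO were IFI27, IFIH1, IFIT5 and RSAD2, which lay higher, and MAVS, which lay lower. In WT these were IFITM3, ISG20 and OASL, which lay higher, and DDX60, HERC6, IRF9 and USP18, which lay lower. RSAD2 was separated in WT too, and ISG20 and OASL in KO too, and there they were called. In KO the 14 include 8 of the 11 genes called higher. The exceptions were IRF1, IFITM3 and IFI6. For IFITM3 and IFI6 the fitted difference was positive while the mean over the KO libraries was lower with Aza. Within clones, 18 of 39 genes were higher with Aza in all 4 clones (21.3% of all tested genes were) and 5 were higher in none (BST2, IFI44, IFI44L, TRIM22 and USP18, against 18.6%). For F4 this sets the batch 1 Aza library against the batch 2 DMSO library. The median within-clone log2 difference, with a pseudocount of 0.1 CPM, lay between 0.13 and 0.19 in the 4 clones, against 0.00 to 0.03 over all tested genes.

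Among the RNA sensors, DHX58, which encodes the regulatory RIG-I-like receptor LGP2, was higher with Aza than with DMSO at 72 h in both genotypes. In KO it measured 4.26 and 6.06 CPM in the A12 DMSO libraries of batches 1 and 2 and 3.14 CPM in the F4 DMSO library. With Aza it measured 7.65 CPM in A12 and 6.42 CPM in F4, above all 3 DMSO libraries. The log2 difference was 1.08 ± 0.18 (SE; edgeR adjusted p = 0.000135). In WT the DMSO libraries held 4.25 CPM (A7) and 3.74 CPM (C4) and the Aza libraries 5.88 and 6.42 CPM. That difference was 0.63 ± 0.18 (edgeR adjusted p = 0.0145). Before treatment DHX58 measured 7.55 and 6.65 CPM in A12, 4.88 and 4.79 CPM in F4, and 6.95 and 4.79 CPM in WT. The Aza levels at 72 h overlapped these in both genotypes. IFIH1, the gene of the sensor MDA5, measured 14.7 to 16.9 CPM in KO DMSO and 18.1 and 19.6 CPM in KO Aza libraries, which did not overlap, but its log2 difference of 0.24 ± 0.15 was not called (edgeR adjusted p = 0.304). MAVS, the adaptor below both sensors, was called in neither genotype, with log2 differences of -0.16 and 0.04. TLR3, the endosomal sensor of double-stranded RNA, had at most 3 counts in any library.

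Of 5 transcription factors, IRF7 rose in both genotypes and IRF1 in KO. IRF7 is the interferon-inducible factor that amplifies interferon gene transcription. Its KO DMSO libraries held 5.36, 7.21 and 7.22 CPM and its KO Aza libraries 9.94 (A12) and 9.66 CPM (F4). In WT it went from 5.03 and 4.77 CPM in DMSO to 10.6 and 9.99 CPM in Aza, in A7 and C4. The groups did not overlap in either genotype. The log2 difference was 0.76 ± 0.15 in KO (edgeR adjusted p = 0.000878) and 1.07 ± 0.15 in WT (9.59e-06). IRF1, a factor that also responds to inflammatory signals, was called in KO alone, at 0.38 ± 0.13 (edgeR adjusted p = 0.0382). Its KO DMSO libraries ran from 11.9 to 16.5 CPM and its KO Aza libraries held 15.3 and 17.3 CPM, so the groups overlapped. The IRF1 call held in 4 of 14 alternative fits and was lost with DESeq2 (adjusted p = 0.0606), in batch 1 alone (edgeR adjusted p = 0.137) and without either Aza library, among others. IRF1 in WT differed by 0.08 ± 0.12. STAT2, IRF3 and IRF9 were called in neither genotype. IRF9 shares 48.4% of its exon bases with another gene model, and its counts are uncertain for that reason.

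The enzymes that act on double-stranded RNA split by direction, with 2 of 4 tested higher and 1 lower in KO, and 1 of each in WT. OAS3, a synthetase whose product activates RNase L, measured 0.549, 0.717 and 0.697 CPM in the KO DMSO libraries and 2.79 and 3.11 CPM in the KO Aza libraries. In WT it measured 0.601 (A7) and 1.25 CPM (C4) in DMSO and 1.71 and 3.85 CPM in Aza. No treated library overlapped an untreated one of its genotype. The log2 difference was 2.16 ± 0.39 in KO (edgeR adjusted p = 0.000247) and 1.56 ± 0.35 in WT (0.00259). Without the WT Aza library of C4, the WT difference was 1.20 and no longer called (edgeR adjusted p = 0.117).

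OASL, an OAS-like protein without synthetase activity, held 0.309, 0.358 and 0.0951 CPM in KO DMSO and 1.00 and 0.670 CPM in KO Aza libraries. The lowest of these values, F4 in DMSO, stood at the counting floor. The log2 difference in KO was 2.20 ± 0.56 (edgeR adjusted p = 0.00606). The call was lost with no clone block (edgeR adjusted p = 0.107), in batch 1 alone (0.0854) and with only the libraries compared (0.0532). In WT the libraries went from 0.263 and 0.356 CPM to 0.484 and 0.595 CPM, and the difference of 0.78 ± 0.54 was not called (edgeR adjusted p = 0.361). EIF2AK2, the gene of the kinase PKR, which halts translation on contact with double-stranded RNA, was lower with Aza in both genotypes. WT values fell from 144 and 143 CPM to 112 and 121 CPM, without overlap. KO values were 157 and 130 CPM (A12) and 119 CPM (F4) in DMSO, and 122 and 122 CPM in Aza, so the F4 DMSO library lay below both treated ones. The log2 differences were -0.35 ± 0.06 in KO (edgeR adjusted p = 0.000279) and -0.30 ± 0.06 in WT (0.000704). The KO call was lost when the failed library was included, where the difference was -0.02. ADAR, which edits double-stranded RNA, differed by 0.10 ± 0.06 and 0.14 ± 0.06 and was not called. OAS1 reached 0.143 and 0.158 CPM in the KO Aza libraries and at most 0.0398 CPM in the KO DMSO libraries at 72 h. These are at most 4 counts per library and were not tested.

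**Figure D2:**
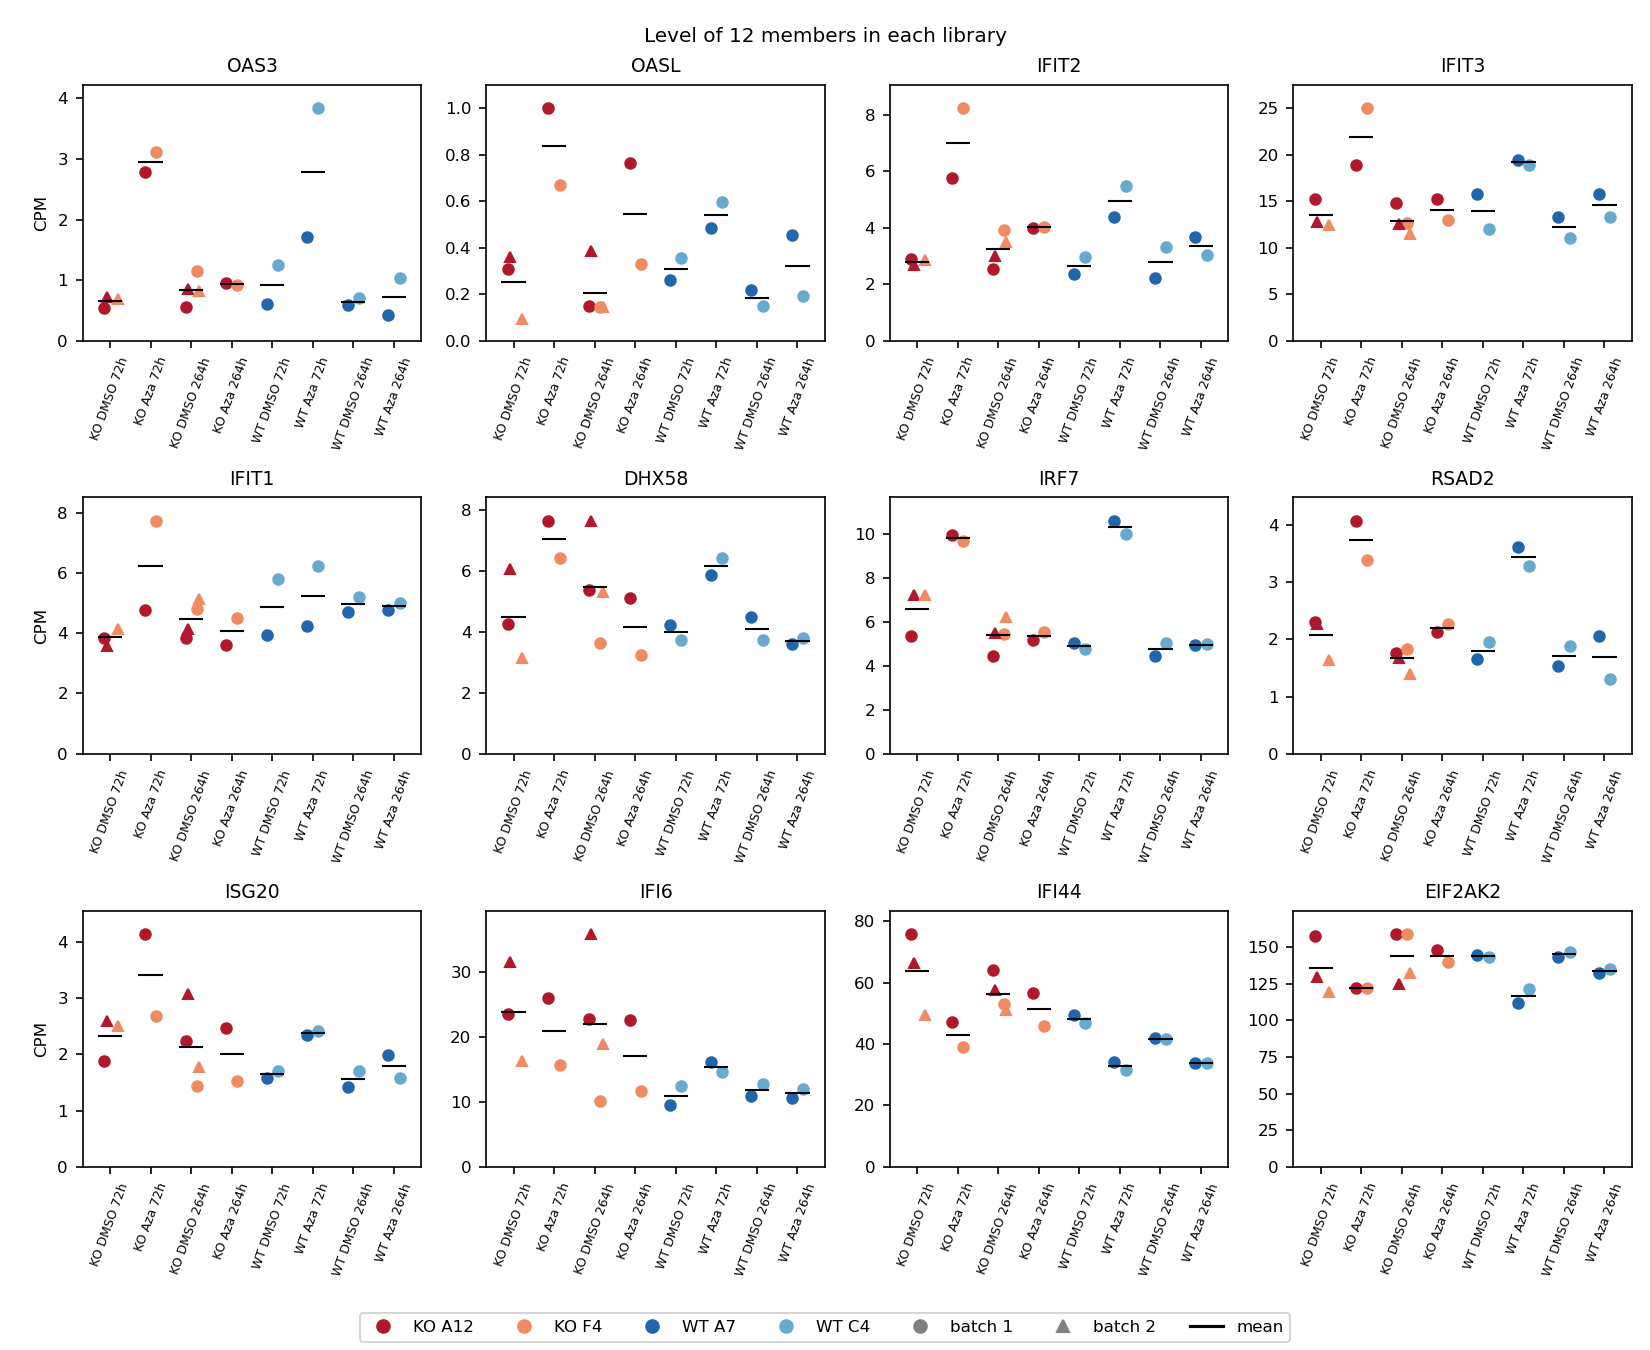
Level in CPM (vertical axis, starting at 0) of 12 genes in each library at 72 h and 264 h, by group (horizontal axis); circles are batch 1, triangles batch 2, colours the 4 clones, and short lines the group means. OAS3 stood at 2.79 and 3.11 CPM in KO with Aza at 72 h, and at 0.953 and 0.913 CPM at 264 h.

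The IFIT genes encode proteins that bind foreign RNA and block its translation, and 3 of 4 rose in KO and 2 of 4 in WT. IFIT2 measured 2.88, 2.67 and 2.85 CPM in KO DMSO and 5.76 and 8.24 CPM in KO Aza libraries. In WT it went from 2.37 and 2.96 CPM to 4.39 and 5.47 CPM. Its log2 difference was 1.19 ± 0.23 in KO (edgeR adjusted p = 0.000515) and 0.89 ± 0.22 in WT (0.00661), with no overlap in either. Before treatment IFIT2 measured 3.92 and 2.31 CPM in A12, 5.94 and 3.23 CPM in F4, and 3.81 and 2.74 CPM in WT. IFIT3 measured 12.4 to 15.3 CPM in KO DMSO and 18.9 and 25.1 CPM in KO Aza, and in WT 15.8 and 12.0 CPM in DMSO and 19.5 and 18.9 CPM in Aza. Its differences were 0.61 ± 0.15 (edgeR adjusted p = 0.00495) and 0.47 ± 0.14 (0.0217). IFIT1 was called in KO at 0.65 ± 0.22 (edgeR adjusted p = 0.0356), where F4 rose from 4.15 to 7.72 CPM and A12 went from 3.84 and 3.58 to 4.76 CPM. In WT it differed by 0.10 ± 0.20. IFIT5, at 0.429 to 2.25 CPM over all libraries, was not called. Its KO libraries at 72 h did not overlap, with 0.824 to 1.55 CPM in DMSO and 2.25 and 1.62 CPM in Aza. IFIT1 kept its call in 5 of 14 alternative fits and IFIT3 in 9 of 14 in KO.

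The ISG15 system showed no called gene in either genotype. ISG15 is a ubiquitin-like protein that interferon induces strongly in many cells, USP18 removes it, and HERC5 is its ligase. ISG15 measured 4.36, 6.21 and 7.73 CPM in KO DMSO and 4.68 and 5.04 CPM in KO Aza libraries. In WT it measured 5.41 and 9.23 CPM in DMSO and 5.59 and 8.48 CPM in Aza. Treated and untreated libraries overlapped, and the fitted log2 differences were 0.28 ± 0.19 in KO and -0.05 ± 0.18 in WT. The KO mean was lower with Aza (4.86 CPM) than with DMSO (6.10 CPM), opposite in direction to the fitted value. USP18 differed by -0.11 ± 0.16 and -0.36 ± 0.14. HERC5 was higher with Aza in every clone, by 0.42 ± 0.21 in KO and 0.21 ± 0.20 in WT, without passing the test. With the WT pre-treatment labels exchanged, HERC5 passed in KO (0.43 ± 0.10, edgeR adjusted p = 0.00145). Of the ADP-ribosylation genes PARP9, PARP14 and their partner DTX3L, a ubiquitin ligase, DTX3L was called in WT at 0.38 ± 0.13 (edgeR adjusted p = 0.0425). Its WT libraries went from 24.2 and 29.6 CPM to 33.5 and 36.3 CPM. DTX3L and PARP9 share a small part of their exons on opposite strands (3.7% and 2.4%), and strand was not used in the counting.

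Among 7 tested effectors of viral entry, replication and release, ISG20 and IFITM3 were called higher in KO and RSAD2 in WT. RSAD2 encodes viperin, a radical enzyme that makes a chain-terminating nucleotide. It measured 2.30, 2.27 and 1.65 CPM in KO DMSO and 4.08 and 3.39 CPM in KO Aza libraries, without overlap. That log2 difference, 0.73 ± 0.27, was not called (edgeR adjusted p = 0.0582). In WT RSAD2 went from 1.65 and 1.96 CPM to 3.61 and 3.29 CPM and was called at 0.94 ± 0.26 (edgeR adjusted p = 0.0136). ISG20, an RNA exonuclease, held 1.89, 2.59 and 2.50 CPM in KO DMSO and 4.15 and 2.68 CPM in KO Aza libraries. It was called in KO at 0.95 ± 0.25 (edgeR adjusted p = 0.00785), and in WT the difference of 0.53 ± 0.25 was not called although its libraries did not overlap. IFITM3 was called in KO at 0.39 ± 0.07 (edgeR adjusted p = 0.000404). Its raw levels overlapped, with 245 CPM in the A12 DMSO library of batch 1, 353 and 391 CPM in the batch 2 DMSO libraries, and 290 and 350 CPM in Aza libraries. The mean was 329.8 CPM with DMSO and 320.1 CPM with Aza, and F4 went from 391 to 350 CPM, so the direction of the fitted value is opposite to that of the means. Within batch 1 alone the difference was 0.30 (edgeR adjusted p = 0.0277), and with the failed library included it was -0.09. BST2, TRIM22, IFITM1 and IFITM2 were not called, and IFITM1 and IFITM2 share 32.5% and 26.9% of their exon bases with each other. MX1, a GTPase that traps viral nucleocapsids, measured 0.112 and 0.278 CPM in WT Aza and 0 in both WT DMSO libraries at 72 h, at most 7 counts, and did not pass the low-count filter. With no such filter it was called in WT (edgeR adjusted p = 0.0491), and its fitted fold against libraries at 0 depends on the prior count.

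Of 9 other interferon-induced genes, IFI44 fell in both genotypes and IFI6 rose in WT. IFI6, a small membrane protein induced by type I interferon, went from 9.47 and 12.4 CPM to 16.2 and 14.6 CPM in WT, at 0.50 ± 0.13 (edgeR adjusted p = 0.00675). In KO it was called at 0.41 ± 0.13 (edgeR adjusted p = 0.0236), with 23.6 and 31.6 CPM in A12 and 16.3 CPM in F4 with DMSO, and 26.1 and 15.7 CPM with Aza. Those libraries overlapped, and their mean was 23.8 CPM with DMSO and 20.9 CPM with Aza, opposite in direction to the fitted value. The KO call was lost in 5 of 14 alternative fits, among them batch 1 alone (0.28, edgeR adjusted p = 0.311) and no clone block (0.10, 0.938). With the failed library included the KO difference was -0.07. IFI44 measured 76.0, 66.4 and 49.4 CPM in KO DMSO and 47.1 and 39.1 CPM in KO Aza. In WT it went from 49.5 and 46.9 CPM to 34.2 and 31.5 CPM. Every Aza library lay below every DMSO library of its genotype at 72 h, and the log2 differences were -0.60 ± 0.09 (edgeR adjusted p = 3.15e-05) and -0.55 ± 0.09 (5.87e-05). Before treatment IFI44 measured 62.3 and 57.8 CPM in A12, 39.7 and 45.5 CPM in F4, and 30.4 and 32.6 CPM in WT. Those levels overlapped the ones with Aza at 72 h. SAMD9L, an antiproliferative gene mutated in inherited marrow disorders, fell in WT from 9.62 and 9.62 CPM to 6.63 and 7.02 CPM (-0.50 ± 0.14, edgeR adjusted p = 0.0179). In KO it differed by -0.40 ± 0.16 (0.0767). IFI27, IFI35, IFI44L, DDX60, XAF1 and SAMD9 were not called. IFI35 and XAF1 passed in WT with the pre-treatment labels exchanged, at 0.76 ± 0.17 (edgeR adjusted p = 0.000921) and 0.55 ± 0.16 (0.011).

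The question of genotype was tested with the difference between the KO and WT treatment effects. None of the 39 genes passed at 72 h (edgeR, with 0% of all 18391 genes called), none had an unadjusted p below 0.05, and DESeq2 called none either. Over all genes, 631 had an unadjusted p below 0.05. The largest estimates were 1.42 ± 0.79 for OASL (95% interval -0.32 to 3.16), 0.74 ± 0.57 for IRF9, 0.60 ± 0.53 for OAS3 (-0.57 to 1.77) and 0.55 ± 0.30 for IFIT1 (-0.11 to 1.21), all higher in KO. DHX58 differed by 0.46 ± 0.26 and IRF7 by -0.31 ± 0.21, the latter higher in WT. The median over the 39 genes was 0.10, against 0.02 over all genes. The genes called in 1 genotype alone are therefore not shown to differ between genotypes. At 264 h the same test called none, with none at an unadjusted p below 0.05. Of the 13 genes called in KO and 11 in WT, 8 were called in both: OAS3, IFIT2, IFIT3, DHX58, IRF7, IFI6, IFI44 and EIF2AK2.

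**Figure D3:**
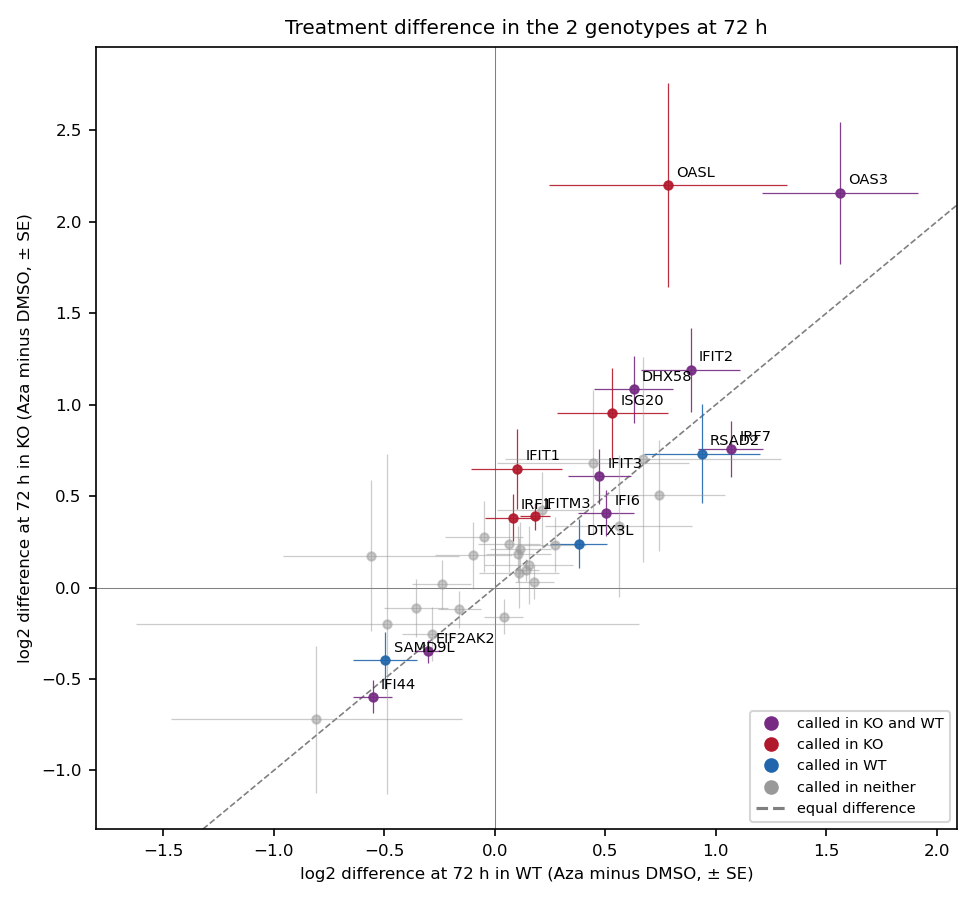
Log2 difference of Aza against DMSO at 72 h in KO (vertical axis) against WT (horizontal axis) for 39 genes, with SE bars; purple points were called in both genotypes, red in KO, blue in WT, grey in neither, and the dashed line marks equal differences. OASL lies farthest above the line (2.20 in KO, 0.78 in WT), and its bars are among the longest.

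At 264 h none of the 39 genes was called in KO or in WT by edgeR or by DESeq2. At an unadjusted p below 0.05 there were 3 in KO and 4 in WT, and over all genes 0.0979% were called in KO and 0.500% in WT. OAS3 measured 0.953 and 0.913 CPM with Aza in KO, inside the range of 0.561 to 1.15 CPM of the 4 DMSO libraries. IRF7 measured 5.18 and 5.55 CPM with Aza in KO against 4.45 to 6.20 CPM with DMSO, and 4.92 and 4.99 CPM in WT against 4.45 and 5.02 CPM. OASL was the member with the largest estimate at this time, 1.56 ± 0.55 in KO (edgeR adjusted p = 0.596), with 0.762 and 0.329 CPM in Aza and 0.143 to 0.386 CPM in DMSO libraries. Every Aza library lay above every DMSO library for 3 genes in KO (5.43% of all tested genes) and 5 in WT (18.2%), and below for 0 in KO (4.95%) and 4 in WT (18.1%). With the WT pre-treatment labels exchanged, IFIH1 was higher (0.38 ± 0.09, edgeR adjusted p = 0.0195) and IFI44 lower (-0.31 ± 0.08, 0.0476) in WT at 264 h, and both were also called with those libraries left out.

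The change from 72 h to 264 h was tested directly as the difference between the 2 treatment effects. In KO, 7 genes had a smaller effect at 264 h and 1 a larger one, against 7.67% and 5.48% of all genes. The 7 were OAS3 (-1.99 ± 0.47, edgeR adjusted p = 0.00563), DHX58 (-1.24 ± 0.22, 0.000482), IFIT2 (-0.91 ± 0.28, 0.0293), IFIT1, IFIT3, IRF7 and IFITM3. The gene with a larger value was IFI44, whose negative difference at 72 h was closer to 0 at 264 h (0.38 ± 0.11, edgeR adjusted p = 0.0217). In WT, IRF7 was called lower (-1.0 ± 0.21, edgeR adjusted p = 0.00377) and SAMD9L higher (0.71 ± 0.20, 0.0349), against 2.83% and 4.00% of all genes. With the WT pre-treatment labels exchanged, the counts were 9 and 2 in KO and 4 and 1 in WT. No KO call held in all 19 alternative fits, and batch 1 alone gave 1 called gene, lower at 264 h.

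**Figure D4:**
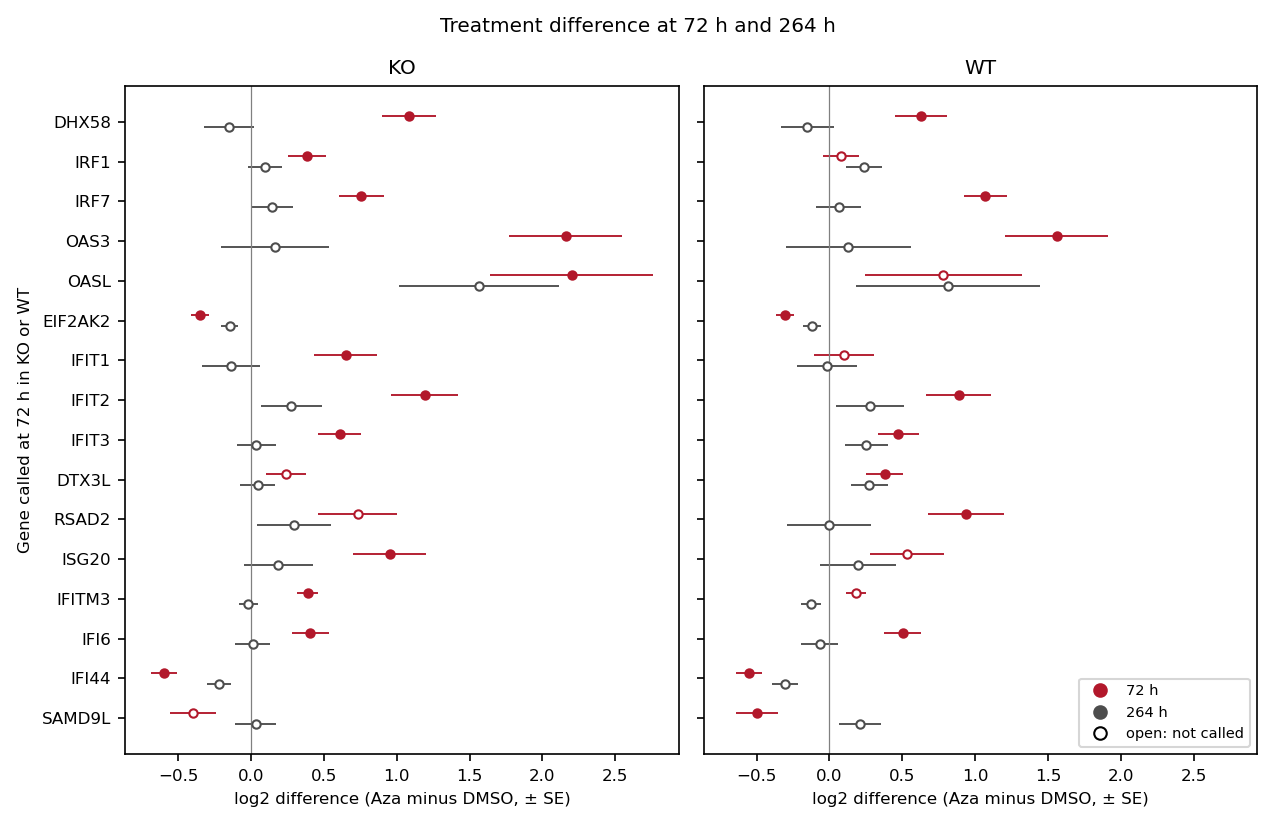
Log2 difference of Aza against DMSO (horizontal axis, with SE bars) at 72 h (red) and 264 h (grey) in KO (left) and WT (right) for the 16 genes called at 72 h in either genotype; filled points were called and open points were not. All grey points are open, and DHX58 moved from 1.08 to -0.15 in KO.

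The vehicle cultures were compared between the 2 times. Between DMSO at 72 h and at 264 h, IFIH1 (0.39 ± 0.11, edgeR adjusted p = 0.046) and IFITM3 (0.22 ± 0.05, 0.0227) were higher in KO, against 2.74% of all genes higher. None of the 39 genes was called in WT by edgeR or DESeq2 (3 at an unadjusted p below 0.05, and 0.00544% of all genes called). With batch 1 alone no gene was called in KO.

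Of 83 other genes of the interferon pathway in a fixed list, 80 were matched and 59 tested. At 72 h, 13 were higher and 6 lower in KO and 7 higher and 8 lower in WT, where 11.6% and 8.47% of all tested genes were in KO and 9.26% and 9.04% in WT. The KO count of lower genes and the WT count of higher genes lie near those shares. The interferon ligands IFNB1, IFNA1, IFNA2, IFNE, IFNK, IFNW1, IFNG, IFNL1, IFNL2 and IFNL3 reached at most 0.112 CPM in any library and none was tested. IFNB1 had 5 counts over all 25 libraries. IFNAR2, a chain of the type I interferon receptor, was higher in both genotypes (0.30 ± 0.09 in KO, edgeR adjusted p = 0.0144, and 0.31 ± 0.08 in WT, 0.0103). IFNAR1, the other chain, was higher in KO at 0.30 ± 0.09 (edgeR adjusted p = 0.0228). RIGI, the sensor RIG-I, differed by 0.31 ± 0.16 and 0.17 ± 0.16 and was not called. IKBKE, CCL5 and UHRF1 were not analysed here.

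GBP4, a guanylate-binding protein induced by interferon gamma, and CMPK2, a mitochondrial nucleotide kinase that neighbours RSAD2, passed with a rise of at least 2-fold in both genotypes. GBP4 went from 43.1, 35.5 and 31.2 CPM to 146 and 129 CPM in KO and from 21.9 and 19.9 CPM to 49.8 and 77.5 CPM in WT. Its log2 differences were 1.82 ± 0.20 (edgeR adjusted p = 2.71e-05) and 1.59 ± 0.20 (9.48e-05). CMPK2 went from 28.8 to 32.9 CPM in KO DMSO to 57.8 and 74.2 CPM in KO Aza, and from 23.2 and 27.9 CPM to 45.4 and 67.4 CPM in WT. Its differences were 1.04 ± 0.11 (edgeR adjusted p = 3.64e-07) and 1.13 ± 0.11 (5.55e-08). Of 5 tested genes derived from endogenous retroviruses, ERVFRD-1, which encodes syncytin-2, was higher in KO at 1.03 ± 0.29 (edgeR adjusted p = 0.0121). Its KO Aza libraries held 1.65 CPM (A12) and 3.43 CPM (F4) against 1.08 to 1.43 CPM in DMSO at 72 h. In the KO libraries without Aza at the other times, ERVFRD-1 ran from 1.05 to 1.82 CPM in A12 and from 2.10 to 2.52 CPM in F4. ERV3-1, another envelope gene of retroviral origin, was lower in KO at -0.79 ± 0.26 (edgeR adjusted p = 0.0307), with 1.79 to 2.15 CPM in DMSO and 1.07 and 0.906 CPM in Aza libraries. None of the 5 was called in WT. Transcripts of retroelements outside these gene models were not analysed here.

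KO was compared with WT before treatment, in the 264 h DMSO cultures, and after Aza at either time, with 2 batch 1 libraries per genotype and 37 or 38 of the genes tested. No gene of the set was called by edgeR in any of the 4 comparisons, where 0.0543%, 0.208%, 0.190% and 0.0488% of all genes were. At an unadjusted p below 0.05 there were 3, 5, 2 and 7 genes, and at 264 h DESeq2 called IFI44 with DMSO (adjusted p = 0.0334) and with Aza (0.00843). Without the F4 library, 3 or 4 genes were called in each of the 4 comparisons, IFI6 among them. That leaves 1 KO library, A12, which is assumed to vary like the WT pair, and the genes called include some that separate A12 from F4 (IFI6, HERC5 and HERC6). IFI44L had the largest estimates, from 1.51 to 2.45 on the log2 scale, and IFI44, its neighbour on chromosome 1, ran from 0.39 to 0.71 higher in KO. In Aza at 72 h IFI44L measured 1.11 and 0.828 CPM in KO and 0.0745 and 0.278 CPM in WT. The lower WT value, in A7, lay below the floor of 0.109 CPM for that library. With DMSO at 264 h the WT libraries held 0.219 and 0.222 CPM, so these estimates rest on low WT counts. ISG15 was 0.24 to 0.64 lower in KO. It lies at 948803 on chromosome 1 (GRCh37), in the first 20 Mb, where the median over 226 to 230 tested genes was -0.59 to -0.53. IFI6 lies at 27992572 on the same chromosome, between 25 and 30 Mb, where the median over 88 to 91 genes was 0.33 to 0.39. IFI6 was 0.44 to 0.92 higher in KO, but this excess lay in clone A12. In the libraries compared, IFI6 measured 22.6 to 26.4 CPM in A12, 10.1 to 15.7 CPM in F4 and 10.1 to 16.2 CPM in WT.

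Some genes separated the clones of 1 genotype whatever the treatment. In KO, HERC5, HERC6, IFI6, IFI35 and XAF1 were higher in every A12 library (8) than in every F4 library (7), a pattern that 2.72% of all tested genes showed. HERC5 ran from 21.8 to 34.1 CPM in A12 and from 8.43 to 13.5 CPM in F4. HERC6, a related ligase beside HERC5 on chromosome 4, ran from 11.2 to 14.7 and from 5.15 to 7.45 CPM. Within 5 Mb of HERC5 the median difference of 31 other genes was 0.57 (log2, A12 minus F4), while near IFI6, IFI35 and XAF1 it was 0.01, -0.02 and -0.02. In WT libraries taken after treatment began, IRF3, IFITM1, IFITM2 and XAF1 were higher in every A7 library and IFIT1, ISG15, HERC5, PARP9, PARP14 and IFI27 in every C4 library, patterns shown by 3.59% and 4.40% of all genes.

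**Figure D5:**
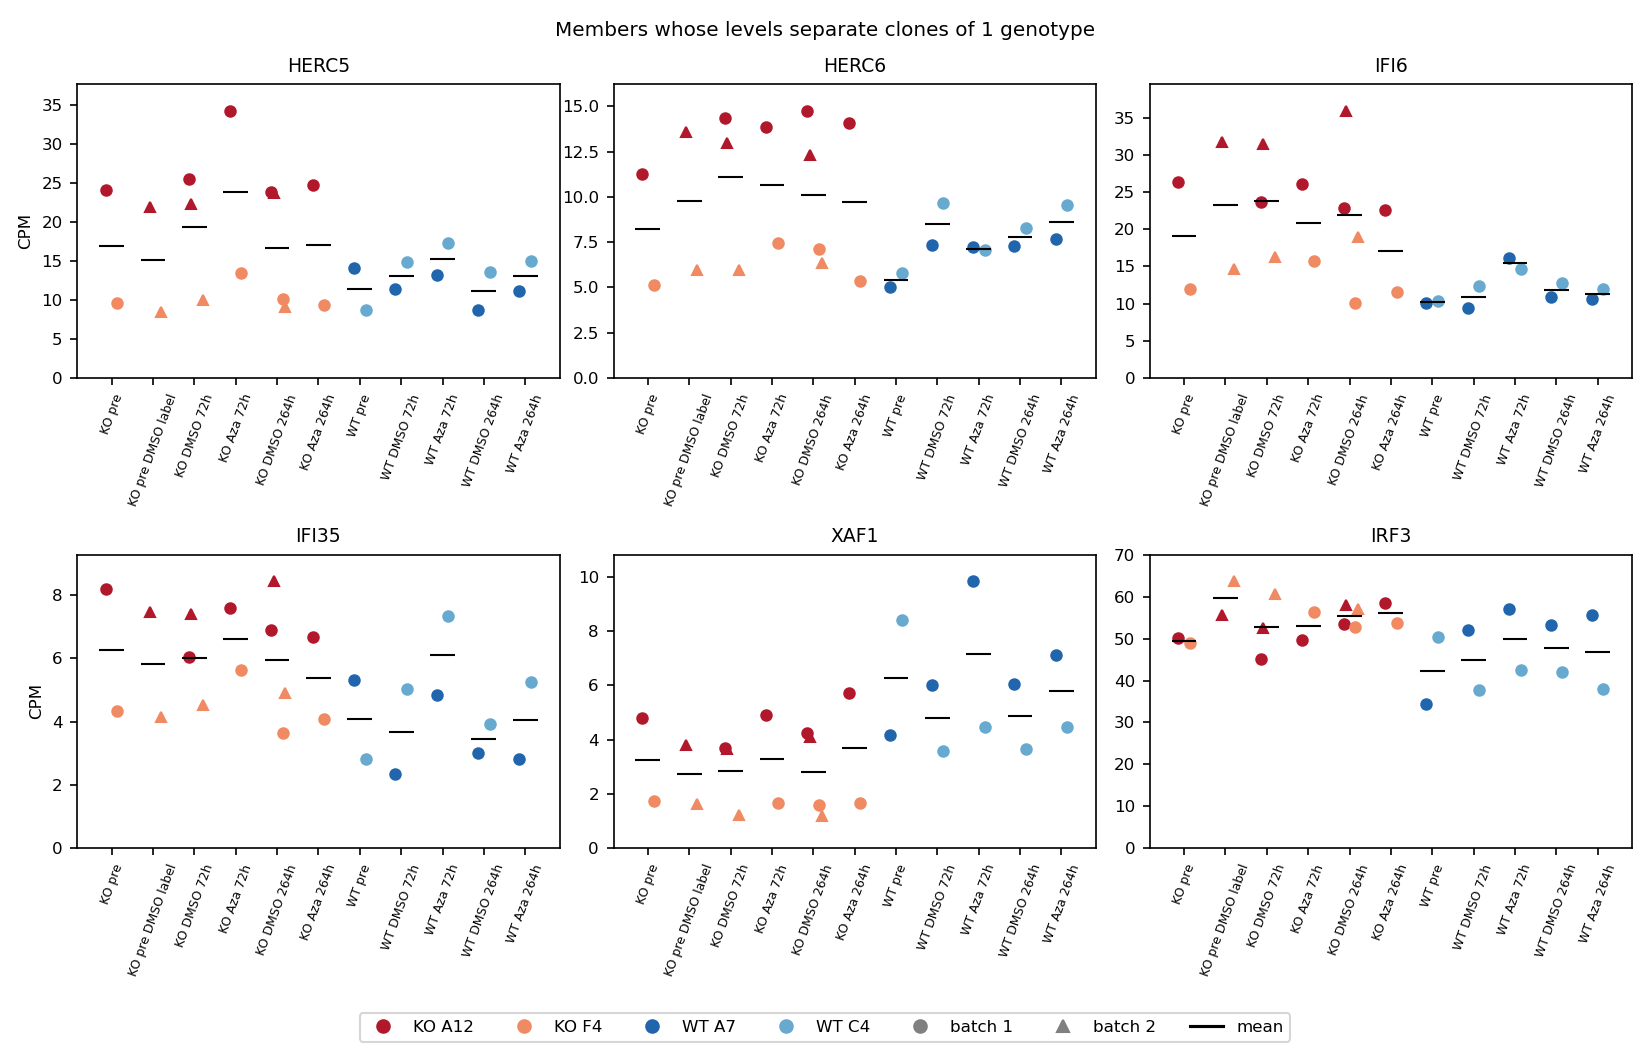
Level in CPM (vertical axis, starting at 0) of 6 genes in all 25 libraries by group (horizontal axis), with circles for batch 1, triangles for batch 2, colours for the clones and short lines for group means. HERC5 stays at 21.8 CPM or above in A12 and at 13.5 CPM or below in F4, and XAF1 and IRF3 show the WT pre-treatment labels A7 and C4 in the opposite order to the later libraries.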

How the data were processed

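RNA-seq was measured in 26 libraries, 25 of which passed quality control. The authors deposited raw counts per gene. Per the submitters' processing notes, reads were trimmed with cutadapt, aligned to hg19 (GRCh37) with STAR 2.6.1d and counted over GENCODE 19 exons with featureCounts 1.6.2. The kit is stranded, but per the file headers no strand option was set, so overlapping antisense genes share reads. The headers also carry a tag rmRep, whose meaning is not given in the sources used here. Of 57773 gene IDs, 51996 were named from a gene name table, 342 from GENCODE 29, and 5435 kept their ID only. IKBKE, CCL5, UHRF1 and the marker MRC1 were not matched and are not analysed here. One other gene of the pathway list is not reported here by name.

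One shared fit of the 25 libraries (edgeR 4.0.16, R 4.3.3, robust quasi-likelihood, TMM) held 11 groups, clone within genotype and batch, with 11 residual degrees of freedom and 18391 genes after the filter on low counts. KO and WT were compared in batch 1 libraries alone, without a block, because clones are nested in genotype. "Called" means a Benjamini-Hochberg adjusted p below 0.05 over all genes. CPM uses TMM library sizes, SE is the model's, and total counts had a median of 27477937. Intervals and floors cover counting or model error only. The clone names pair the libraries: over the 3000 most variable genes, same-clone deviations correlated at 0.450 to 0.576 in KO and 0.451 to 0.516 among later WT libraries. The labels do not say that libraries are separate cultures, so p-values measure the spread between these libraries of 2 clones per genotype.

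Per-library values are given for genes called in an Aza comparison or an interaction test. The members and lists were chosen with earlier results of these data known. Alternatives were DESeq2 1.42.0, RLE size factors, no low-count filter, no clone block, the failed library included, batch 1 only, only the libraries compared, exchanged or left-out WT pre-treatment libraries and leaving out each library. Leaving out the WT pre-treatment libraries, and leaving out single libraries in the comparisons between times, were chosen after seeing the data. The scripts were tested on simulated data.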

Additional observations from a re-analysis of the deposited data

Results flagged for a closer look

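OASL in KO with DMSO at 264 h held 1 library apart from the others. The A12 library of batch 2 measured 0.386 CPM, against 0.150 CPM in A12 of batch 1 and 0.143 and 0.146 CPM in F4. It stood out by Dixon's gap test for 4 libraries, applied to 39 genes in this group. Chance alone gives such a gap in about 1 in 20 groups.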

How the results depend on the processing

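With no replicate block for the clone, 6 genes were called in KO and 4 in WT at 72 h, against 13 and 11 with the block, 1 and 1 for the difference between the 2 times (8 and 2 with it) and 0 for the DMSO change in KO (2 with it). The block changed no call at 264 h and no interaction. No paired analysis was possible for KO against WT because the clones are nested in genotype.

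Including the failed library gave 8 and 3 calls at 72 h in KO and WT, 2 and 1 for the difference between times and 0 for the DMSO change in KO, and it turned the direction of IFI6 (-0.0659) and IFITM3 (-0.0858) in KO at 72 h and of IFITM3 (-0.0809) in the DMSO change. Batch 1 alone gave 8 at 72 h in KO, 1 for the difference between times in KO and 0 for the DMSO change. Exchanging or leaving out the WT pre-treatment libraries gave 2 calls at 264 h in WT, 5 for the difference between times in WT and 4 for the DMSO change in KO. Only the libraries compared gave 17 calls in WT at 72 h and 4 at 264 h. Without the low-count filter, 6 genes were called for the DMSO change in KO and 3, 3, 2 and 7 for KO against WT before treatment, with DMSO at 264 h, and with Aza at 72 h and at 264 h. DESeq2 called 1 gene in KO against WT with DMSO and 1 with Aza at 264 h.

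Where leaving out 1 library leaves an arm with a single library, that library is assumed to vary like the other groups. Leaving out 1 library gave 9 to 12 calls in KO at 72 h and 5 to 8 in WT, with 5 without A7 in DMSO, 6 without A7 in Aza and 7 without C4 in Aza. The difference between times ranged from 3 (without F4 in Aza at 264 h) to 7 in KO, with 4 without A12 of batch 2 in DMSO at 264 h and 5 without F4 or A12 in Aza or A12 of batch 1 in DMSO at 72 h, and from 1 to 3 in WT. The DMSO change in KO ranged from 0 to 1. KO against WT ranged from 0 to 4 before treatment and from 0 to 3 with DMSO at 264 h, with Aza at 72 h and with Aza at 264 h. Calls appeared without F4, and 1 without A12 in Aza at 264 h. The interaction tests, the 264 h calls in KO and the DMSO change in WT were 0 under every alternative run. At 72 h, IFI44, IFIT2, IRF7 and OAS3 were called in KO under all 14 alternatives, and IRF7 in WT under all 13. The causes were not tested.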
